A study of Mus musculus with 30 samples.

Results

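A set of 9 genes of secreted adipocyte proteins, Adipoq, Lep, Retn, Cfd, Agt, Rbp4, Nampt, Apln and Rarres2, was followed through 6 groups of cultured 3T3-L1 cells. The 9 genes were found by their mouse symbols among the 54232 genes of the count table, and 8 of the 9 had enough counts to be tested. 3T3-L1 is a mouse preadipocyte line that turns into fat cells in adipogenic medium, here kept in that medium for 5 days. The study asked what indoxyl sulphate (IS), a solute that builds up in renal failure, and oxidized low density lipoprotein (oxLDL) do to adipocytes, and what pNaKtide, a cell-permeant peptide made to block the signalling function of the Na,K-ATPase, does to that. The 6 groups of 5 libraries were control, 0.7 µM pNaKtide, 100 µM IS, IS + pNaKtide, 50 µg/mL oxLDL and oxLDL + pNaKtide, each at the same doses wherever an agent recurs. All 6 groups therefore share 1 cell line and the adipogenic medium. The labels give 5 days of treatment and the study's methods a shorter time, and the labels' extraction text names adipose tissue although every library is labelled as 3T3-L1 cells. No source states that the 5 libraries of a group came from separate cultures, so p-values measure the spread between these libraries, which may be technical.

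Adipokines are proteins that fat cells release into the blood or the surrounding tissue. Adiponectin, encoded by Adipoq, promotes insulin sensitivity and fatty acid oxidation, leptin, encoded by Lep, reports fat stores to the brain, and resistin, encoded by Retn, opposes insulin action in mice. Cfd encodes adipsin (complement factor D), the protease that starts the alternative complement pathway, Agt encodes angiotensinogen, the precursor of angiotensin II, and Apln encodes apelin, a peptide that acts on vessels and heart. Nampt (visfatin) makes the first product of the NAD salvage pathway inside the cell and is also found outside it, Rarres2 encodes the chemoattractant chemerin, and Rbp4 carries retinol in plasma. Most of these genes come on late in the differentiation of 3T3-L1 cells, under PPARγ and the C/EBP factors.

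Promoter windows of 250 bases before and 50 after the start site, from RefSeq on build GRCm38.p6, matched 8 of the 9 members, all but Rarres2. Those of Adipoq, Retn, Cfd and Agt, which rose together when pNaKtide was added to oxLDL, and that of Nampt, which fell, are shown because the windows differ in base composition. Capitals mark every match on either strand of TATAAA (the TATA box), CCAAT, TTGCNNAA (a C/EBP-like site), AGGTCA (bound by nuclear receptors), CACGTG (an E-box) and GGGCGG (a GC box), and no 2 matches overlapped in these 5 windows.
Adipoq, chr16:23146286-23146585, plus strand: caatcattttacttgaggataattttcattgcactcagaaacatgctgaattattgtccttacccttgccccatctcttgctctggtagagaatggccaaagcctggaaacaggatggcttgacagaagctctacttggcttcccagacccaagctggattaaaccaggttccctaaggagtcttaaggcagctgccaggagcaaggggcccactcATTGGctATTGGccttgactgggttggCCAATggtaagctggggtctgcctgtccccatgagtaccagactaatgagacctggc
Retn, chr8:3655520-3655819, plus strand: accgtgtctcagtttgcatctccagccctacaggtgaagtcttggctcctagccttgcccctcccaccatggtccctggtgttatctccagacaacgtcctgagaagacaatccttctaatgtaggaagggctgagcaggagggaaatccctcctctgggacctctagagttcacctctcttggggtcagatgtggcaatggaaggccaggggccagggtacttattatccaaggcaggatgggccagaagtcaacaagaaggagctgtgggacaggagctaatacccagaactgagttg
Cfd, chr10:79890603-79890902, plus strand: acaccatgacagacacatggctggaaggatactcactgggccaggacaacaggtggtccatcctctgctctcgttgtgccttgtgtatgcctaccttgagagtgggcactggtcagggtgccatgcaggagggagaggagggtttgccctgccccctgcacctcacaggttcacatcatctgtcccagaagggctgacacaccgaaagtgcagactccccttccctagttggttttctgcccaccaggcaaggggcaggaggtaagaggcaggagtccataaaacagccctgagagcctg
Agt, chr8:124569657-124569956, minus strand: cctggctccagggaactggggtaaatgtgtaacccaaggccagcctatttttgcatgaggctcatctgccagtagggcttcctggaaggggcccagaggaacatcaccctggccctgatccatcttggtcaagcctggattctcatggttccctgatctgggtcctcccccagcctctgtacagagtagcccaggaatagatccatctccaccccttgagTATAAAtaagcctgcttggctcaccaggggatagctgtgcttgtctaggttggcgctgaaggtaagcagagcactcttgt
Nampt, chr12:32820085-32820384, plus strand: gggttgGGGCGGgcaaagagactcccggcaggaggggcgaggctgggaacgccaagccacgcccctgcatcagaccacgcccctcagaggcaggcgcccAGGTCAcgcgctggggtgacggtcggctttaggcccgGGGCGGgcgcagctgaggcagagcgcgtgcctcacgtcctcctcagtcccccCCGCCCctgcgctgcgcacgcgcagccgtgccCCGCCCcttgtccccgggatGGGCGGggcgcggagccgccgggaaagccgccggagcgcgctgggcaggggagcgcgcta

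The Nampt window had 36 CG dinucleotides and a GC content of 76.3%, whereas Adipoq had 0, Agt had 1 and Retn and Cfd had 2 each. Over 32851 windows of mouse genes the median was 7 CG dinucleotides, and 94.4% of them had as many as Nampt or fewer. Of the windows not shown, that of Lep had 19, that of Apln 15 and those of Rbp4 5 and 40. Adipoq held 3 CCAAT matches at positions -34 to -30, -27 to -23 and -7 to -3 from the start site, a motif found in 37.4% of all windows. Agt held 1 TATAAA match at -30 to -25, found in 13.6% of all windows, and Nampt held 5 GGGCGG matches, found in 35.7%, and 1 AGGTCA match at -151 to -146, found in 16.3%. The RefSeq start of Nampt lies inside the gene as GENCODE draws it. The windows of Retn and Cfd held none of the 6 motifs. TTGCNNAA, found in 10.8% of all windows, was in none of the 5 windows shown and lay at -55 to -48 in that of Lep. CACGTG, found in 7.15%, was in no member's window. A match or its absence describes these letters in these windows and no binding was measured. No link of base composition to the change of a gene was tested, and the fall of Nampt depended on the processing, as given below.

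Each library held 6945498 to 15159877 counts, with a median of 11524210. The defining adipocyte markers were abundant, with mean levels in FPKM (fragments scaled by transcript length and library size, as deposited) of 557 for Fabp4, 124 for Plin1, 82.0 for Cebpa and 52.6 for Pparg. Of 14 macrophage and leukocyte markers, 4 had no count in any library, Ptprc, Itgam, Tyrobp and Cd3e, and the summed level of the list was 8.21 to 15.1 CPM (counts scaled to 1e+06 per library). Of 11 endothelial markers, 2 had no count, Cldn5 and Tie1, and the list summed to 22.7 to 39.5 CPM. Libraries control 1 and IS 4 stood apart from their groups. The first principal component of 12580 genes, those whose log2 CPM averaged 1 or more, held 64.4% of the variance in log2 CPM and placed control 1 at -25.8 against 6.47 to 29.9 for the other controls, and IS 4 at 28.2 against -36.7 to -23.1 for the other IS libraries. The files alone cannot tell 2 exchanged labels from 2 libraries that differ from their groups, so values that use control or IS carry this limit, and the labels were kept. Libraries oxLDL + pNaKtide 4, at 67.5 against 14.5 to 33.2, and pNaKtide 3, at -5.36 against 15.9 to 36.6, also lay outside their groups. Counts of members and of listed genes between IS or oxLDL and control are given with and without control 1 and IS 4. These libraries were picked because they stood apart in these same data, each toward the other's group. Leaving them out therefore tends to widen differences from control, and the counts without them are no independent support.

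Levels are CPM after scaling by the trimmed mean of M values (TMM) unless FPKM is named, and only FPKM, which is per length, compares genes with each other. Agt had the highest FPKM of the members, 1209 ± 325 (SD over 30 libraries), and ranked 37 among all genes. Adipoq followed with an FPKM of 729 ± 159 at rank 86, and Cfd with 693 ± 226 at rank 97. Retn had an FPKM of 101 ± 28.97. Nampt, Apln and Rarres2 lay close together at 47.7 ± 9.61, 45.8 ± 3.96 and 41.5 ± 10.4 FPKM. Apln varied least over the libraries, from 38.7 to 52.6 FPKM, and Cfd covered a wide range, from 406 to 1203 FPKM. In bulk RNA, fewer cells that express a gene and less RNA of it per cell cannot be told apart.

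Lep (chr6:29060220-29073877 of GRCm38, plus strand) was close to the detection floor. It had 76 counts in all 30 libraries together, 0 to 7 per library, and its mean FPKM was 0.0653. Lep passed the filter of more than 14 counts over the libraries, but its group means of 0.148 to 0.351 CPM lay at or under the level of 3 counts in a library, so no fold change is given for it, and it was not called in any of the 11 comparisons made. Rbp4 (chr19:38116629-38125281, minus strand) had 0 of 344223499 counts, which allows a level of up to 0.198 CPM in the deepest library and 0.432 CPM in the shallowest, for counting error only. It was not tested. Of 21983 protein-coding genes 20.5% likewise had no count in any library. Both floors concern counts under the authors' gene models, whose release is not given in the sources used here.

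Of the 8 members tested, 4 passed the threshold of a BH-adjusted p-value of 0.1 between oxLDL and control, where 36.0% of all 20139 genes did. Cfd, Agt and Rarres2 were lower in oxLDL and Nampt was higher, against 18.0% lower and 18.1% higher of all genes. The median log2 fold change of the 8 was -0.23, against 0.05 over all genes (edgeR quasi-likelihood test with BH adjustment, as for all adjusted p-values of the main test). Here and below, medians over the 8 include the fitted value of Lep. Between oxLDL + pNaKtide and oxLDL, 6 of the 8 members passed, where 48.3% of all genes did. Adipoq, Retn, Cfd, Agt and Rarres2 rose and Nampt fell, against 22.1% higher and 26.1% lower of all genes, with a median log2 fold change over the 8 of 0.57 against -0.09 over all genes. In all 6 of them the 5 libraries of a group lay entirely above or below those of the other, which held for 28.4% of all genes. Both comparisons share the oxLDL libraries.

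**Figure D1:**
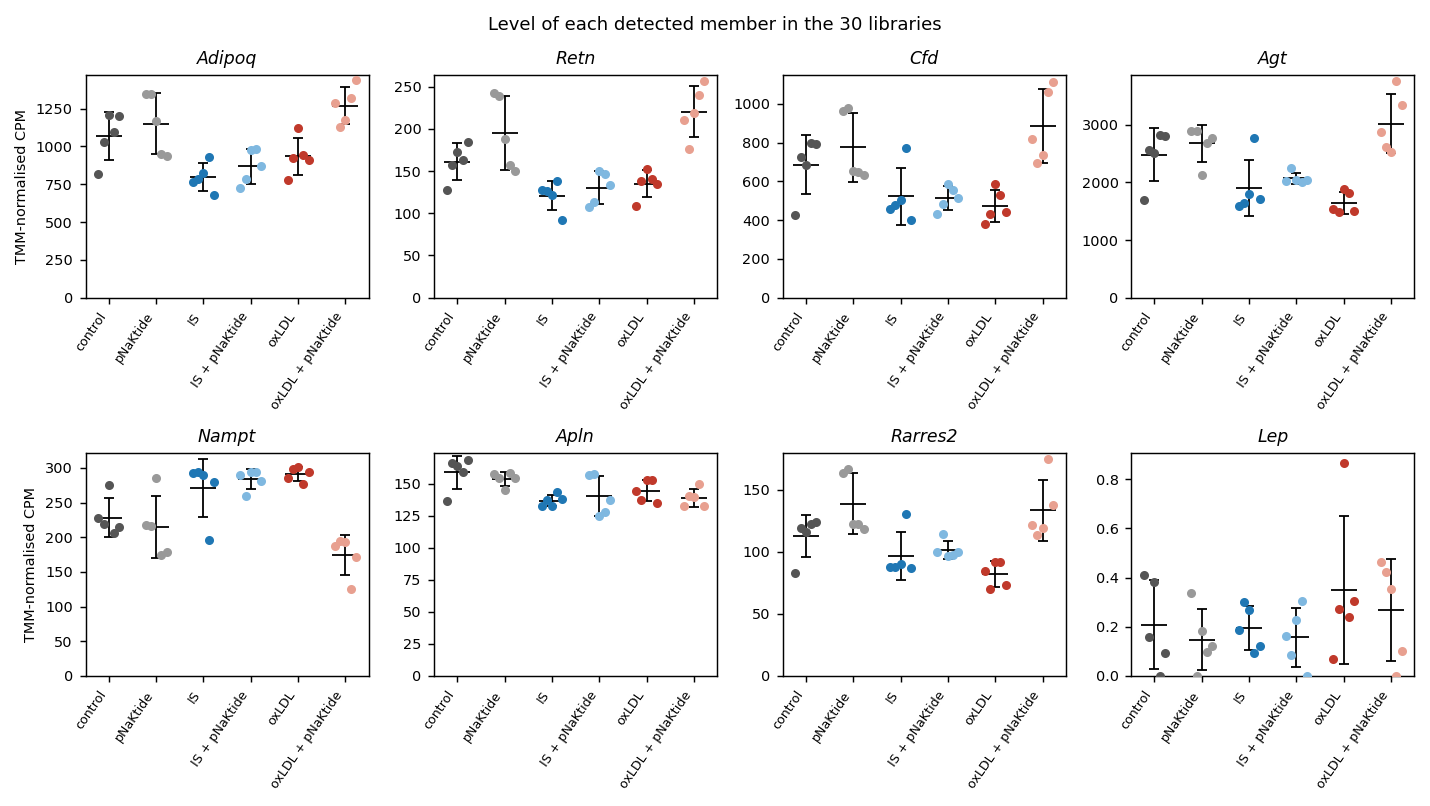
TMM-normalised CPM (y axes, linear, from 0) of the 8 members with counts in the 6 groups (x axes); each point is 1 library, the bar is the mean and the whiskers are 1 SD (n = 5). The oxLDL + pNaKtide libraries of Adipoq, Retn, Cfd, Agt and Rarres2 all sit above the oxLDL libraries and those of Nampt below, and Lep stays under 1 CPM.

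Adipoq (chr16:23146536-23158028, plus strand) had 818, 1033, 1206, 1096 and 1199 CPM in control libraries 1 to 5. In oxLDL it had 775, 922, 1125, 942 and 908 CPM, and in oxLDL + pNaKtide 1291, 1129, 1176, 1319 and 1438 CPM. The oxLDL values overlapped control, and every oxLDL + pNaKtide value lay above every oxLDL value, by a narrow margin at the nearest pair. The log2 fold change was -0.20 ± 0.12 (SE) for oxLDL against control, with an adjusted p of 0.251, and 0.44 ± 0.12 for oxLDL + pNaKtide against oxLDL, a 1.36-fold rise with an adjusted p of 0.00461. Scaled by library size only, the rise was 0.22 (adjusted p = 0.0827), smaller by over 1.5 times.

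Retn (chr8:3655770-3660110, plus strand) had 127, 157, 173, 163 and 185 CPM in the control libraries. In oxLDL the values were 109, 138, 152, 140 and 135 CPM, and in oxLDL + pNaKtide they were 211, 176, 219, 240 and 256 CPM. Control and oxLDL overlapped, and the lowest oxLDL + pNaKtide library exceeded the highest oxLDL library. The log2 fold change against control was -0.26 ± 0.14 in oxLDL (adjusted p = 0.156), and oxLDL + pNaKtide exceeded oxLDL by 0.71 ± 0.14, a factor of 1.64 (adjusted p = 0.000136).

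Cfd (chr10:79890853-79892655, plus strand) had 429, 724, 687, 799 and 793 CPM in control. It had 382, 432, 586, 531 and 440 CPM in oxLDL and 819, 696, 736, 1064 and 1115 CPM in oxLDL + pNaKtide. Only control 1 lay among the oxLDL libraries, and oxLDL + pNaKtide did not overlap oxLDL. Cfd fell by 0.54 ± 0.18 on the log2 scale in oxLDL, a 1.45-fold decrease (adjusted p = 0.0269), and rose by 0.90 ± 0.18 with pNaKtide, 1.87-fold (adjusted p = 0.000202). With each library freed of its trend over GC content and length, as described with the plot of settings, the log2 fold change in oxLDL was -0.10 with an adjusted p of 0.599. The rise with pNaKtide was then 0.29 (adjusted p = 0.0440), smaller by over 1.5 times.

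Agt (chr8:124556534-124569706, minus strand) had 1702, 2571, 2515, 2832 and 2805 CPM in control. In oxLDL it had 1537, 1481, 1892, 1815 and 1508 CPM, and in oxLDL + pNaKtide 2870, 2615, 2528, 3758 and 3348 CPM. Control 1 was the 1 control library within the oxLDL range, and the oxLDL + pNaKtide libraries lay far above oxLDL. Agt fell by 0.59 ± 0.14 in oxLDL, 1.51-fold (adjusted p = 0.00818), and rose by 0.88 ± 0.14 with pNaKtide, 1.84-fold (adjusted p = 3.42e-05). These were the lowest adjusted p-values of any member in both comparisons. With the trend taken out both values were smaller by over 1.5 times, at -0.29 and 0.49, and both still passed.

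Rarres2 (chr6:48569696-48572789, minus strand) had 83.2, 120, 116, 123 and 124 CPM in control. It had 84.8, 69.8, 91.9, 92.0 and 73.2 CPM in oxLDL and 122, 114, 119, 175 and 138 CPM in oxLDL + pNaKtide. Again control 1 alone fell within the oxLDL range, and the oxLDL + pNaKtide values cleared it. Rarres2 fell by 0.46 ± 0.13 in oxLDL, 1.37-fold (adjusted p = 0.0140), and rose by 0.70 ± 0.13 with pNaKtide, 1.62-fold (adjusted p = 0.000131). Lrrc61, on the opposite strand, overlaps Rarres2 and had 5.63% as many counts. The strand setting of the counting is not given in the sources used here.

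Nampt (chr12:32819545-32853349, plus strand) moved the other way. It had 228, 218, 276, 206 and 214 CPM in control, 286, 299, 301, 276 and 294 CPM in oxLDL, and 188, 195, 193, 126 and 171 CPM in oxLDL + pNaKtide. The oxLDL libraries, which were the tightest group of this gene with a coefficient of variation of 3.49%, lay above both other groups without overlap in CPM. For oxLDL against control this held for 8.35% of all genes. The nearest pair, oxLDL 4 and control 3, was almost level at 276.2 and 275.7 CPM. In FPKM their order turned, at 53.06 and 53.66, so that the groups overlapped. Nampt rose by 0.35 ± 0.12 in oxLDL, 1.27-fold (adjusted p = 0.0333), and fell by 0.74 ± 0.12 with pNaKtide, 1.67-fold (adjusted p = 4.02e-05). With the trend over GC content and length taken out, oxLDL against control turned to -0.18 (adjusted p = 0.126) and oxLDL + pNaKtide against oxLDL to -0.03 (adjusted p = 0.844). Gdap10, a lincRNA on the same strand within the Nampt locus, had 1.58% as many counts as Nampt.

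Apln (chrX:48025146-48034853, minus strand) had 137, 167, 164, 159 and 168 CPM in control. In oxLDL it had 144, 138, 153, 153 and 135 CPM, and in oxLDL + pNaKtide 132, 141, 140, 150 and 132 CPM. The 3 groups overlapped. The log2 fold change was -0.14 ± 0.08 for oxLDL against control (adjusted p = 0.177) and -0.06 ± 0.08 for oxLDL + pNaKtide against oxLDL, with a 95% interval of -0.21 to 0.10 (adjusted p = 0.590). The second comparison depended on the setting, as Apln was called lower with library size only (-0.28, adjusted p = 0.00117) and with the trend over GC content and length taken out (-0.18, adjusted p = 0.0155).

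Without control 1 and IS 4, the count called between oxLDL and control went from 4 to 7 of 8, since Adipoq (-0.28, adjusted p = 0.0482), Retn (-0.33, adjusted p = 0.0459) and Apln (-0.19, adjusted p = 0.0370) also passed. The count over all genes went from 7259 to 9591 of 20139 under the same setting. The 6 calls of oxLDL + pNaKtide against oxLDL kept their side of the threshold with any 1 library left out. Without oxLDL + pNaKtide 4, which stood apart on the first principal component, the rises were 0.44 to 0.84 and Nampt stood at -0.63.

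**Figure D2:**
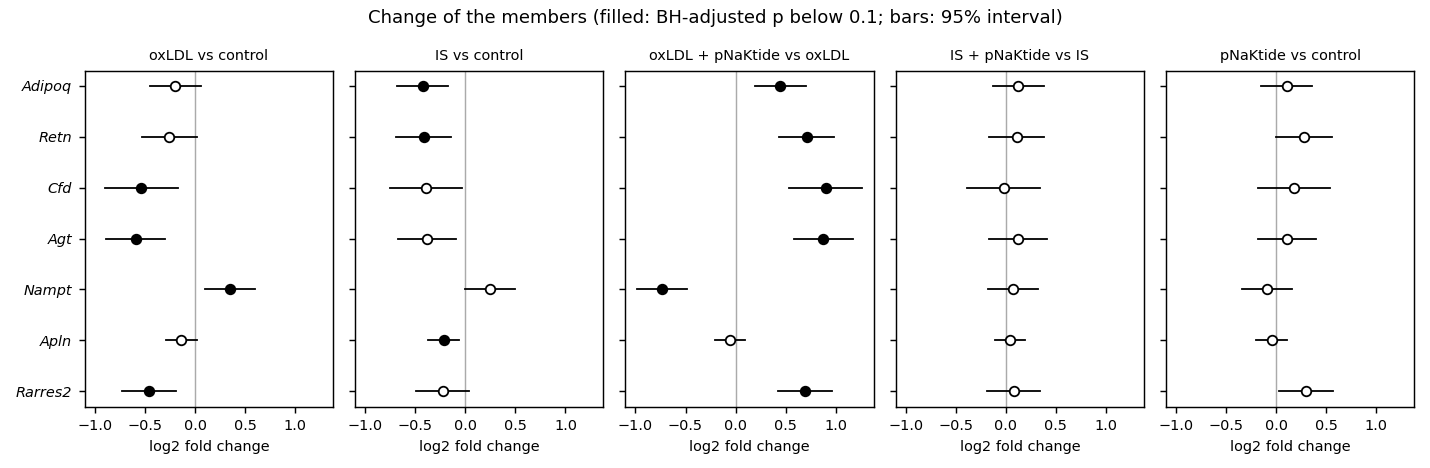
Log2 fold change (x axes) of the 7 members above the detection floor (y axis) in 5 comparisons, from the 6-group edgeR test; bars are 95% intervals and filled points have a BH-adjusted p-value below 0.1. The 6 filled points of oxLDL + pNaKtide against oxLDL lie 0.44 to 0.90 above 0 or, for Nampt, at -0.74, and no point is filled for pNaKtide added to IS or given alone.

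In IS, 3 of the 8 members were lower than in control, Adipoq, Retn and Apln, where 7.94% of all genes were called, 3.49% lower and 4.45% higher. The median log2 fold change of the members was -0.31, against 0.02 over all genes. Adipoq had 764, 784, 827, 932 and 676 CPM in IS libraries 1 to 5. All 5 lay below the control mean of 1070 CPM, with control 1 inside the IS range. Adipoq fell by 0.43 ± 0.12 on the log2 scale, 1.34-fold (adjusted p = 0.0719).

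Retn had 127, 126, 121, 138 and 92.3 CPM in IS. Every IS library except IS 4 lay under all control libraries, though IS 1 and control 1 were almost level. Retn fell by 0.41 ± 0.14, 1.33-fold (adjusted p = 0.0877). Apln had 133, 137, 132, 143 and 138 CPM in IS, a narrow group that overlapped control only through control 1. Apln was lower by 0.22 ± 0.08 (adjusted p = 0.0966), and with the trend over GC content and length taken out stood at -0.13 and was not called (adjusted p = 0.210).

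The other 4 members above the floor had IS values that IS 4 set apart. Agt had 1596, 1649, 1800, 2772 and 1707 CPM and Cfd had 456, 479, 505, 775 and 401 CPM in IS 1 to 5. Rarres2 had 87.6, 87.5, 90.2, 131 and 87.2 CPM, so that 4 libraries lay within 3 CPM of each other and IS 4 lay above every control library (83.2 to 124 CPM). Nampt had 293, 294, 290, 197 and 280 CPM, with IS 4 below every control library (206 to 276 CPM). None of the 4 was called by edgeR, with log2 fold changes of -0.38 for Agt (adjusted p = 0.111, but past the threshold in 6 of 13 alternatives, DESeq2 among them), -0.39 for Cfd (adjusted p = 0.170), -0.23 for Rarres2 (adjusted p = 0.274) and 0.25 for Nampt (adjusted p = 0.206).

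The IS result rested on few libraries and on the shared spread of 6 groups. Without control 1 and IS 4, 7 of the 8 members were called, 6 lower and Nampt higher, with log2 fold changes of -0.57 for Adipoq, -0.54 for Retn, -0.71 for Cfd, -0.67 for Agt, -0.45 for Rarres2, -0.28 for Apln and 0.34 for Nampt. The direction of Nampt was not stable, since with the trend over GC content and length taken out it stood at -0.15 (adjusted p = 0.293), and with both libraries left out as well at -0.26, called lower (adjusted p = 0.00647). Without control 1 and IS 4 and with the trend left in, 9140 of all 20139 genes were called, against 1599 in the main test. With 1 library left out at a time the count ran from 0 to 7, while that over all genes ran from 15 (without control 5) to 6952 (without IS 4), and each of the 3 calls was lost when any 1 library of either group other than control 1 or IS 4 was left out. With only the 2 groups in the fit, edgeR called 0 of the 8 and 0 of all genes. DESeq2 and limma on log2(FPKM + 1) each called 4 of the 8, where DESeq2 called 3160 of 13500 and limma 1776 of 13639 genes with an adjusted p-value. Scaled by library size only, Retn (-0.30) and Apln (-0.10) were not called.

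Between IS + pNaKtide and IS, 0 of the 8 members were called, in a comparison in which edgeR called 0 of all genes. Over all genes 564 had an unadjusted p-value under 0.05, and DESeq2 called 14 of 13110 and limma 3 of 13639. Of the members, 0 had an unadjusted p-value under 0.05, and DESeq2 and limma also called 0. Agt had 2022, 2243, 2039, 2006 and 2049 CPM in IS + pNaKtide, a tighter group than IS and within its range. Adipoq had 723, 787, 978, 983 and 870 CPM and Retn had 107, 113, 151, 147 and 133 CPM, both overlapping IS. Nampt had 290, 259, 294, 295 and 282 CPM, within or near the range of IS. Cfd had 432, 486, 585, 556 and 516 CPM, all under IS 4, and Rarres2 had 100, 115, 97.0, 97.3 and 99.6 CPM, between IS 4 and the other IS libraries. Apln had 157, 157, 124, 128 and 137 CPM, a wider spread than in IS. The 95% intervals of the log2 fold change against IS were -0.17 to 0.41 for Agt, -0.13 to 0.38 for Adipoq, -0.17 to 0.38 for Retn, -0.38 to 0.34 for Cfd, -0.19 to 0.34 for Rarres2, -0.18 to 0.32 for Nampt and -0.11 to 0.19 for Apln.

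Between pNaKtide alone and control edgeR called 0 of the 8 members, where 0.00497% of all genes were called. Retn and Rarres2 had unadjusted p-values under 0.05, as did 1233 of 20139 genes. DESeq2 and limma called 0 members, where they called 57 of 6083 and 4 of 13639 genes with an adjusted p-value. Retn ranged from 150 to 243 CPM with a median of 187 CPM in pNaKtide, and Rarres2 from 119 to 167 CPM with a median of 122 CPM. In both genes pNaKtide 1 and 2 lay above the highest control, as they did for Adipoq and Cfd, and pNaKtide 4 and 5 lay within the control range. The log2 fold change was 0.28 ± 0.14 for Retn (adjusted p = 0.813) and 0.30 ± 0.13 for Rarres2 (adjusted p = 0.752). Adipoq ranged from 937 to 1349 CPM, Cfd from 634 to 979 CPM, Agt from 2133 to 2900 CPM, Nampt from 174 to 286 CPM and Apln from 145 to 158 CPM, each overlapping control.

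Against control, oxLDL + pNaKtide had higher Retn (0.45 ± 0.14, adjusted p = 0.0609) and lower Nampt (-0.39 ± 0.12, adjusted p = 0.0802), 2 of 8 members where 5.20% of all genes were called. The Nampt libraries of the 2 groups did not overlap, which held for 4.03% of all genes. Retn lost its call without control 1 (adjusted p = 0.158), without oxLDL + pNaKtide 4 or without oxLDL + pNaKtide 5, and Nampt lost it without control 1, 3 or 5 or oxLDL + pNaKtide 1, 4 or 5, each left out alone, with an adjusted p of up to 0.314 without oxLDL + pNaKtide 4. With the trend over GC content and length taken out Nampt stood at -0.21 and was not called (adjusted p = 0.126), Retn was still called at 0.43, and Apln passed at -0.18 (adjusted p = 0.0536). IS + pNaKtide against control gave 0 called members with edgeR, where 0.358% of all genes were called, although 5 had an unadjusted p-value under 0.05, as did 4022 of 20139 genes. DESeq2 called 1 member and limma 0, where they called 1486 of 11939 and 160 of 13639 genes with an adjusted p-value. Without control 1 edgeR called 6 members, Adipoq, Retn, Cfd, Agt and Apln lower at -0.54 to -0.22 and Nampt higher at 0.31, and over all genes the count went from 72 to 5378. IS against oxLDL gave 0 as well, where 0.0149% of all genes were called, with 0 members at an unadjusted p-value under 0.05 and 0 by DESeq2 or limma.

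Whether the change with pNaKtide differed between backgrounds was tested as a difference of changes in the same fit. It differed between oxLDL and control for 3 of 8 members, where 24.6% of all genes were called. The difference was 0.73 ± 0.25 for Cfd (adjusted p = 0.0507), 0.77 ± 0.20 for Agt (adjusted p = 0.0246) and -0.65 ± 0.17 for Nampt (adjusted p = 0.0254). Retn, at 0.43 ± 0.19 (adjusted p = 0.113), Rarres2 at 0.40 ± 0.19 (adjusted p = 0.134) and Adipoq at 0.34 ± 0.18 (adjusted p = 0.180) did not pass. Cfd lost its call without control 4, without pNaKtide 3 or without oxLDL + pNaKtide 4, with adjusted p-values of 0.103 to 0.109. Without control 1 and IS 4 the count was 6, with Adipoq, Retn and Rarres2 added, while the count over all genes went from 4951 to 8049 of 20139.

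Between IS and oxLDL the change with pNaKtide differed for 5 of 8 members, where 29.3% of all genes were called. The change in IS was below that in oxLDL for Retn (-0.60 ± 0.19), Cfd (-0.93 ± 0.25), Agt (-0.76 ± 0.20) and Rarres2 (-0.62 ± 0.19) and above it for Nampt (0.81 ± 0.17), with adjusted p-values from 0.00965 to 0.0274. All 5 kept their side of the threshold with any 1 library left out. Between IS and control it differed for 0 of 8 members and 0 of all genes by edgeR, with 0 members and 619 of all genes at an unadjusted p-value under 0.05 and 0 of either by DESeq2 or limma. The 3 differences share libraries with each other and with the comparisons above. With the trend over GC content and length taken out, Cfd and Nampt passed in neither of the first 2 differences. Cfd then stood at 0.19 and -0.33 and Nampt at 0.00 and 0.14. The Agt differences were smaller by over 1.5 times, at 0.40 and -0.38, and still passed, and Adipoq passed in the first at 0.37 (adjusted p = 0.0968).

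In the order of the group means, oxLDL + pNaKtide was first for Adipoq, Retn, Cfd and Agt, followed by pNaKtide and then control. Rarres2 had the same 3 groups on top with pNaKtide first at 139 CPM and oxLDL + pNaKtide second at 133 CPM. Nampt had them at the bottom, with oxLDL + pNaKtide last at 175 CPM. With the trend over GC content and length taken out, control and pNaKtide were instead the highest groups of Nampt, at 256 and 251 CPM. oxLDL + pNaKtide stayed last at 222 CPM. The lowest group was IS for Adipoq, Retn and Apln and oxLDL for Cfd, Agt and Rarres2. No 2 neighbours in the order of any member passed the threshold, so that only groups farther apart were separated.

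The GC content of each gene and its length moved with the groups. Within each library, the deviation of each gene's log2 CPM from its mean over libraries was fitted over the GC content of its longest transcript and its exonic length in GENCODE M21. The change in log2 CPM per 10% GC had a median of 0.235 in control, 0.226 in pNaKtide and 0.163 in oxLDL + pNaKtide, but -0.236 in IS, -0.0934 in IS + pNaKtide and -0.286 in oxLDL. Control 1 had -0.147 and IS 4 had 0.245, each at the level of the other's group, and oxLDL + pNaKtide 4 and pNaKtide 3 lay outside their groups at 0.579 and -0.138. Among the members Cfd and Agt had the highest GC contents, 58.4% and 56.3%, and Nampt had the lowest, 40.3%, and is also the longest at 5054 bases. The part of this trend in the results was measured only by taking it out.

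With the trend taken out, the rise with pNaKtide in oxLDL stood at 0.41 for Adipoq (adjusted p = 0.00126), 0.60 for Retn (adjusted p = 0.000150), 0.29 for Cfd (adjusted p = 0.0440), 0.49 for Agt (adjusted p = 1.44e-05) and 0.63 for Rarres2 (adjusted p = 3.60e-05). These 5 kept direction and call, with Cfd and Agt reduced by over 1.5 times. Nampt lost its call and Apln passed at -0.18 (adjusted p = 0.0155). For oxLDL against control Agt (-0.29, adjusted p = 0.0206) and Rarres2 (-0.38, adjusted p = 0.0250) kept their calls, with Agt smaller by over 1.5 times, and Cfd and Nampt lost theirs. For IS against control Adipoq (-0.42, adjusted p = 0.0266) and Retn (-0.36, adjusted p = 0.0894) kept theirs and Apln did not.

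**Figure D3:**
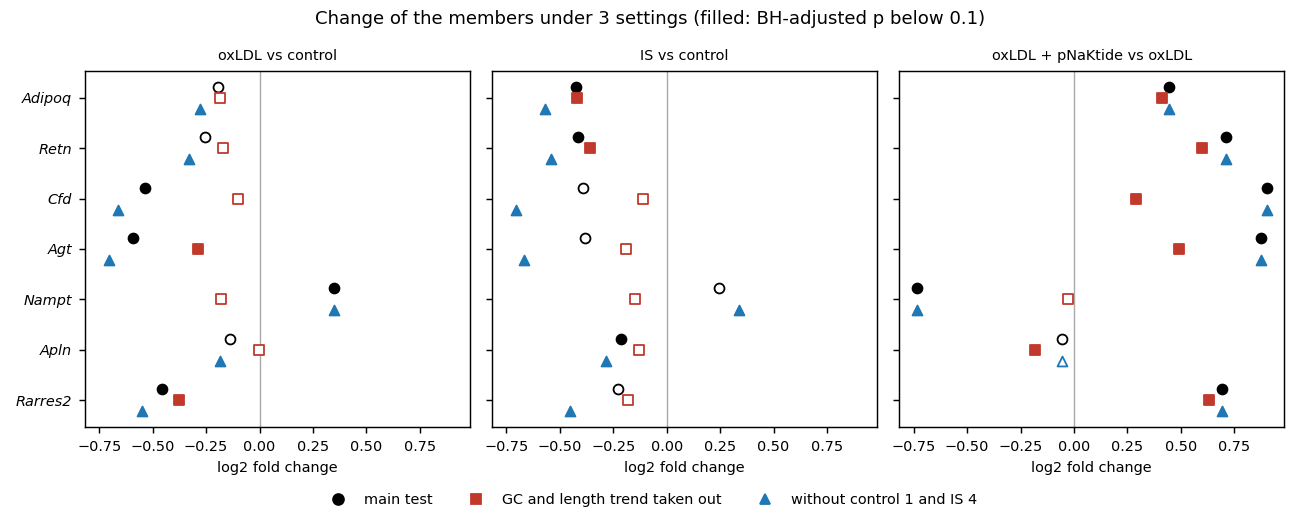
Log2 fold change (x axes) of the 7 members (y axis) in 3 comparisons from the main test (circles), with the trend over GC content and length taken out (squares) and without control 1 and IS 4 (triangles); filled symbols have a BH-adjusted p-value below 0.1. Nampt moves from 0.35 to -0.18 for oxLDL against control with the trend out, and Adipoq moves little, from -0.20 to -0.18.

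The 30 genes listed as receptors and partners of the members and found in the table included 19 that could be tested. Against control, 4 were higher and 4 lower in oxLDL (8 of 19, where 36.0% of all genes were called), and 3 higher and 1 lower in IS (where 7.94% were called). Without control 1 and IS 4, 5 were higher and 4 lower in oxLDL and 5 higher and 3 lower in IS, where 9591 and 9140 of 20139 genes were called. With pNaKtide added to oxLDL 2 were higher and 5 lower (7 of 19, where 48.3% were called), with a median log2 fold change over the list of -0.54 against -0.09 over all genes. The adiponectin receptors were well detected, Adipor2 at 116.5 FPKM and Adipor1 at 36.0 FPKM on average. In oxLDL Adipor1 (-0.20 ± 0.09, adjusted p = 0.0875) and Adipor2 (-0.16 ± 0.07, adjusted p = 0.0730) were lower than in control, and neither passed between oxLDL + pNaKtide and oxLDL (0.08 for both). These calls depended on the scaling. By library size only both oxLDL calls were lost (-0.07 and -0.03), and with pNaKtide in oxLDL both passed in the opposite direction (-0.15, adjusted p = 0.0630, and -0.14, adjusted p = 0.0428). With the trend over GC content and length out Adipor1 was not called in oxLDL (-0.05), and Adipor2 passed with pNaKtide (0.23, adjusted p = 0.00393). Cdh13, the T-cadherin that binds adiponectin at the cell surface, fell by 0.63 ± 0.15 in oxLDL (adjusted p = 0.00812) and rose by 0.56 ± 0.15 with pNaKtide (adjusted p = 0.00304), and stood at 0.33 with library size only and at -0.97 and 1.05 with the trend out, all past the threshold. Appl1, the adaptor of the adiponectin receptors, went the other way, 0.65 ± 0.19 in oxLDL (adjusted p = 0.0154) and -0.77 ± 0.20 with pNaKtide (adjusted p = 0.00199). Its values with the trend over GC content and length out were 0.15 and -0.04, and neither passed.

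C3, the complement component to whose pathway adipsin belongs, was among the most abundant of these genes. Its changes had the same sign as those of Cfd, which was not called in IS. C3 fell by 0.41 ± 0.12 in oxLDL (adjusted p = 0.0172) and by 0.45 ± 0.12 in IS (adjusted p = 0.0623), and rose by 0.65 ± 0.12 with pNaKtide in oxLDL (adjusted p = 0.000117). With the trend taken out C3 kept both oxLDL calls, at -0.27 and 0.55, and with library size only its rise was 0.42. Atp6ap2, the prorenin receptor, rose by 0.60 ± 0.14 in both oxLDL (adjusted p = 0.00783) and IS (adjusted p = 0.0443), and fell by 0.79 ± 0.14 with pNaKtide in oxLDL (adjusted p = 6.74e-05), opposite to Agt. With the trend out Atp6ap2 stood at 0.14 in oxLDL and was not called (adjusted p = 0.145), its change in IS was 0.25 (adjusted p = 0.0498), and its change with pNaKtide was -0.21 (adjusted p = 0.0165).

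Of the receptors of the other members, Cap1, a resistin receptor named after its level was seen, was well detected at 51.7 FPKM and was not called between oxLDL or IS and control, or between oxLDL + pNaKtide and oxLDL (-0.08), although with library size only the last passed at -0.30. The others were at low counts. Over all 30 libraries Stra6, a receptor for Rbp4, had 10 counts, the angiotensin receptors Agtr1a, Agtr1b and Agtr2 had 1, 0 and 6 counts, the apelin receptor Aplnr had 26, and the leptin receptor Lepr had 60. Cmklr1, the chemerin receptor, had 245 counts. Lepr, Cmklr1 and Aplnr passed the filter, and none was called between oxLDL or IS and control.

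Among the 14 tested genes for assembly and secretion of adiponectin, 2 were higher and 4 lower in oxLDL against control, 6 were lower in IS, and 5 were higher and 4 lower with pNaKtide in oxLDL. Over all genes 36.0%, 7.94% and 48.3% were called in these comparisons. Leaving out control 1 and IS 4 gave 4 higher and 5 lower in oxLDL and 2 higher and 7 lower in IS. Of all 20139 genes 9591 and 9140 were called under that setting. The collagen lysyl hydroxylases Plod1 and Plod3, whose kind of modification adiponectin carries, fell in oxLDL by 0.59 ± 0.14 (adjusted p = 0.00783) and 0.54 ± 0.12 (adjusted p = 0.00783). Plod3 rose by 0.60 ± 0.12 with pNaKtide (adjusted p = 0.000212). P4hb, a protein disulfide isomerase, fell by 0.41 ± 0.11 in oxLDL (adjusted p = 0.0110) and rose by 0.46 ± 0.11 with pNaKtide (adjusted p = 0.00129). With library size only the rises with pNaKtide were 0.37 for Plod3 and 0.23 for P4hb, both still called. The 2 genes of the list that were higher in oxLDL were Hsp90b1, an endoplasmic reticulum chaperone (0.38 ± 0.12, adjusted p = 0.0170), and Plod2, a lysyl hydroxylase as well (0.50 ± 0.16, adjusted p = 0.0193). Both fell with pNaKtide, by 0.44 ± 0.12 (adjusted p = 0.00256) and 0.88 ± 0.16 (adjusted p = 8.53e-05). With the trend out Plod1, Plod3 and P4hb kept their oxLDL calls at -0.50, -0.29 and -0.21, and Hsp90b1 (-0.02) and Plod2 (0.13) lost theirs. With pNaKtide Plod2 was still called at -0.36, Plod3 at 0.35 and P4hb at 0.24, and Hsp90b1 was not (0.11).

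Of 14 tested genes of NAD metabolism around Nampt, 1 was higher and 2 were lower in oxLDL, and 3 were higher and 4 lower with pNaKtide in oxLDL, where 36.0% and 48.3% of all genes were called. In oxLDL 3 were higher and 3 lower without control 1 and IS 4, a setting under which 9591 of all 20139 genes were called. Nnmt, which methylates the nicotinamide that Nampt uses, had the opposite pattern to Nampt in the main test. It fell by 0.46 ± 0.14 in oxLDL (adjusted p = 0.0154) and by 0.49 ± 0.14 in IS (adjusted p = 0.0628), and rose by 0.74 ± 0.14 with pNaKtide in oxLDL (adjusted p = 9.84e-05). Nmnat2, which acts on the product of Nampt, rose by 0.44 ± 0.13 in oxLDL (adjusted p = 0.0177) and fell by 0.78 ± 0.14 with pNaKtide (adjusted p = 6.45e-05). Sirt1, an NAD-dependent deacetylase, fell by 0.92 ± 0.27 with pNaKtide in oxLDL (adjusted p = 0.00646). With the trend out Nnmt and Nmnat2 kept these oxLDL calls, at -0.29 and 0.52 for Nnmt and 0.44 and -0.68 for Nmnat2, and Sirt1 kept its call at -0.49, whereas Nampt did not. Nampt then stood at -0.18 in oxLDL, the same sign as Nnmt, and at -0.03 with pNaKtide.

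Among 39 tested genes of other secreted adipocyte proteins, 4 were higher and 8 lower in oxLDL, 1 higher and 3 lower in IS, and 9 higher and 9 lower with pNaKtide in oxLDL, against 36.0%, 7.94% and 48.3% of all genes called. Leaving out control 1 and IS 4 gave 4 higher and 11 lower in oxLDL and 5 higher and 15 lower in IS. Over all 20139 genes 9591 and 9140 were called under that setting. The median over the list was 0.13 with pNaKtide in oxLDL. Angpt1, the vascular growth factor angiopoietin 1, rose by 0.77 ± 0.18 in oxLDL (adjusted p = 0.00824) and fell by 1.62 ± 0.19 with pNaKtide (adjusted p = 3.63e-06). The activin antagonist Fst fell by 0.88 ± 0.12 with pNaKtide (adjusted p = 8.56e-06) and the chemokine Cxcl12 by 0.44 ± 0.09 (adjusted p = 0.000198). Vegfb, a vascular growth factor, rose by 0.87 ± 0.12 (adjusted p = 8.65e-06) and the acute phase protein Hp by 0.56 ± 0.14 (adjusted p = 0.00139) in the same comparison. With the trend out the changes with pNaKtide stood at -0.85 for Angpt1, -0.48 for Fst, -0.33 for Cxcl12 and 0.32 for Vegfb, all still called, and at 0.14 for Hp, which was not. Angpt1 in oxLDL stood at 0.19 (adjusted p = 0.0578). With library size only Cxcl12 stood at -0.66 and Hp at 0.34 with pNaKtide, both called.

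Of 32 adipocyte markers tested, 1 was higher, 12 were lower and 19 did not pass in oxLDL against control, where 36.0% of all genes were called. In IS 1 was higher and 9 were lower (7.94% of all genes called), and with pNaKtide in oxLDL 17 were higher and 1 was lower (48.3% of all genes called). The medians over the list were -0.14, -0.22 and 0.32 (log2), against 0.05, 0.02 and -0.09 over all genes. The 1 marker called against the others was Cd36, a fatty acid and oxLDL receptor, in each comparison (0.53, 0.45 and -0.73). Cd36 was called in none of the 3 comparisons with the trend out (-0.08, 0.00 and 0.05). The summed level of the list was 30580 to 37530 CPM in control, 28760 to 35880 CPM in oxLDL and 34700 to 43350 CPM in oxLDL + pNaKtide. Cebpa fell by 0.30 ± 0.11 in oxLDL (adjusted p = 0.0451) and rose by 0.35 ± 0.11 with pNaKtide (adjusted p = 0.0130), and both calls were lost with library size only (-0.17 and 0.12) and with the trend out (0.01 and -0.09). Pparg, Plin1 and Fabp4 did not pass in these 2 comparisons, although Fabp4 passed with pNaKtide with the trend out (0.57) and in oxLDL with library size only (0.31). With the trend over GC content and length out, 4 markers were higher and 6 lower in oxLDL and 16 were higher and 3 lower with pNaKtide, where 3975 and 7404 of 20107 genes were called. Without control 1 and IS 4, 4 were higher and 17 lower in oxLDL and 2 higher and 19 lower in IS, settings under which 9591 and 9140 of all genes were called. Of 24 preadipocyte and fibroblast markers, 3 were higher and 3 lower in oxLDL, 0 higher and 4 lower in IS, and 4 higher and 9 lower with pNaKtide in oxLDL. The summed level of that list was 9033 to 11480 CPM in control, 7520 to 8776 CPM in oxLDL, 5827 to 9541 CPM in IS and 6988 to 10400 CPM in oxLDL + pNaKtide. It was thus lower in every oxLDL library than in any control library, and had a median of 6499 CPM in IS and 7037 CPM in pNaKtide alone against 10180 CPM in control. The largest parts of the sum were the collagens Col1a2, Col3a1 and Col1a1, with mean levels of 2772, 2145 and 1664 CPM. The sum therefore mostly follows these genes and does not describe the list gene by gene. Without control 1 and IS 4, 6 of these markers were higher and 6 lower in oxLDL and 2 higher and 11 lower in IS. Over all genes 9591 and 9140 were then called. Of 7 macrophage and leukocyte markers tested 1, Cd14, was lower in oxLDL (3 without control 1 and IS 4) and 0 passed with pNaKtide in oxLDL by edgeR, and of 4 endothelial markers Egfl7 was higher and Flt1 lower with pNaKtide in oxLDL. Cd14 and Flt1 lost these calls with the trend out (-0.26 and -0.16). The part of any other cell type in the change of the members was not tested.

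Over the 30 libraries the log2 CPM of the members ran along the first principal component to unequal degrees. Pearson's r with it was 0.98 for Agt, 0.95 for Rarres2, 0.92 for Cfd, 0.76 for Retn, 0.74 for Adipoq, 0.47 for Apln and -0.87 for Nampt. These are descriptions over libraries that share groups, depth and the GC trend. In the same libraries Adipoq and Retn followed each other with an r of 0.97, and 0.94 for the deviations from the group means. Agt and Adipoq were looser, with 0.75 and 0.56.

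**Figure D4:**
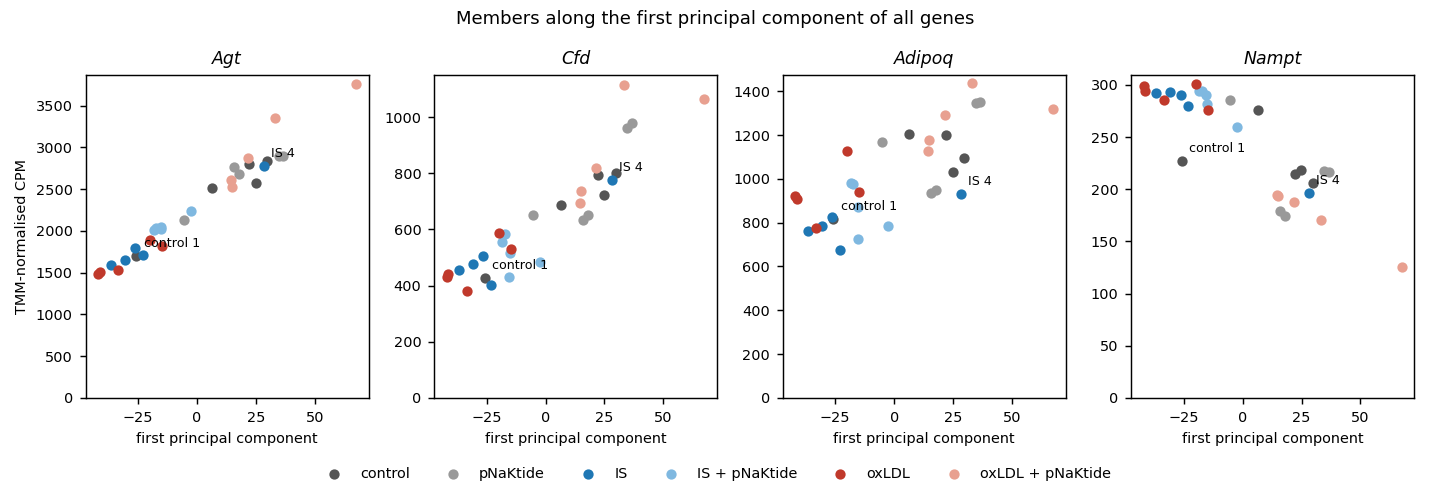
TMM-normalised CPM (y axes, from 0) of Agt, Cfd, Adipoq and Nampt against the first principal component over 12580 genes (x axes, arbitrary units); each point is 1 of 30 libraries, coloured by group. Agt lies almost on a line, Nampt runs downward, and control 1 and IS 4 sit with the libraries of other groups.

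The genes most like each member were named by r of log2 CPM over 30 libraries among 12580 genes. For Adipoq they were Retn, Pla2g16 and Gstz1 (0.97 to 0.95), and for Retn Pla2g16, Adipoq and Fabp5 (0.97 to 0.94). For Cfd they were Adig, Agpat2 and Ldhb (0.99 to 0.98), and for Agt Ptpa, Ucp2 and Oxa1l (0.99 in each). For Nampt they were Golph3, Vps35 and Crot (0.97), for Rarres2 Psmd4, Pebp1 and Smdt1 (0.97), and for Apln Serpinh1, Tnfaip2 and Maged1 (0.83 to 0.78). By deviations from the group means, Pla2g16 stayed first for Retn, Ldhb was first for Cfd and Ptpa for Agt, while Abhd5 was first for Adipoq, Vps35 for Nampt, Cope for Rarres2 and Foxs1 for Apln.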

How the data were processed

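RNA was measured by stranded, paired-end mRNA sequencing in 30 libraries, 5 in each of 6 groups taken from the labels. The deposited table holds raw read counts per gene, made by the authors with Trimmomatic 0.38 and HISAT2 2.1.0 against GRCm38 per the submitters' processing notes, and counted with GenomicAlignments according to the study's methods. Which annotation release was used, and whether counting used strand, is not given in the sources. A table of FPKM values deposited by the authors was used for levels and as an alternative to the counts. The authors' normalized counts were not used here.

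Genes with more than 14 counts summed over the libraries (20139 of 54232) were tested on the raw counts with edgeR 4.0.16 in R 4.3.3. TMM scaling, a robust quasi-likelihood fit over the 6 groups and 11 contrasts were used, and p-values were adjusted by the Benjamini-Hochberg (BH) method over all genes, with a threshold of 0.1. CPM and fold changes come from this fit, and intervals are 95% intervals of the log2 fold change. Gene positions, GC content and length came from GENCODE M21 on GRCm38, which held 54165 of the gene identifiers. Within groups, every pair of libraries differed by more than counting noise (chi-square per degree of freedom of 1.30 or more). The closest were IS + pNaKtide 3 and 4 (1.30), pNaKtide 1 and 2 (1.36) and pNaKtide 4 and 5 (1.40). All other pNaKtide pairs lay at 14.5 to 18.6. Whether such close pairs are separate cultures is not stated, and the tests count each library as 1 of 5. Pairs across groups were not compared. The fit was tested on simulated counts.

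The members and gene lists were chosen with earlier results of these data known. List genes named in the text had the lowest adjusted p-values of their list in each direction, or are receptors and markers named whatever their values. Agtr1b and Agtr2 were added after their counts were seen, and control 1 and IS 4 were picked for leaving out from their place in these data. Alternatives were other scalings and filters, DESeq2 1.42.0, limma 3.58.1 on log2(FPKM + 1) and log2(FPKM + 0.1), a replicate block, only the groups compared, a BH threshold of 0.05, each library left out in turn, control 1 and IS 4 left out together, and a smooth trend over GC content and length (mgcv 1.9.3) taken out of each library. Counting limits assume 3 counts and cover counting error only.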

Additional observations from a re-analysis of the deposited data

Results flagged for a closer look

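Over the 8 members with counts, 48 groups of 5 libraries were tested. In 10 of them a library's gap to its nearest neighbour was over 0.71 of the group's range. Chance gives about 1 in 20 for independent groups. These groups reuse the same libraries for genes that vary together, so 1 library can count several times and the 2 rates cannot be compared directly. IS 4 stood apart for Cfd, at 774.7 CPM against 401.3 to 505.3 in the other IS libraries, for Agt, at 2772 against 1596 to 1800 CPM, for Rarres2, at 130.8 against 87.22 to 90.19 CPM, and for Nampt, at 196.6 against 280.3 to 293.5 CPM. Control 1 stood apart for Agt, at 1702 against 2515 to 2832 CPM, and for Rarres2, at 83.2 against 115.7 to 123.9 CPM. IS + pNaKtide 2 stood apart for Agt (2243 CPM, others 2006 to 2049) and Rarres2 (114.8 CPM, others 97 to 100.3), and pNaKtide 3 for Agt (2133 CPM, others 2687 to 2900) and Apln (144.8 CPM, others 154.2 to 158). In 6 of these 10 the library was control 1 or IS 4, which also lay outside their groups on the first principal component and in the slope over GC content. The part of that slope in these values was not tested.

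The change with pNaKtide differed between backgrounds by a test of the difference itself (edgeR quasi-likelihood test). In oxLDL minus control it was 0.73 for Cfd, 0.77 for Agt and -0.65 for Nampt. In IS minus oxLDL it was -0.60 for Retn, -0.93 for Cfd, -0.76 for Agt, -0.62 for Rarres2 and 0.81 for Nampt. The Cfd and Nampt differences were not past the threshold with the trend over GC content and length taken out.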

How the results depend on the processing

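Of the 8 members tested, 6 were called between oxLDL + pNaKtide and oxLDL under every alternative run except library size only, where Apln also passed and the count was 7. With the trend over GC content and length out Apln passed and Nampt did not. For oxLDL against control the count of 4 became 2 with the trend out, 5 with DESeq2 or only the groups compared, 7 without both control 1 and IS 4, and 4 to 7 with 1 library left out. For IS against control the count of 3 became 0 at a BH-adjusted p of 0.05 or with only the groups compared, 1 with library size only or genes with at least 1 count, 2 with the trend out, 4 with DESeq2, limma on log2(FPKM + 1) or either stricter filter, 7 without both libraries, 5 with the trend out as well (an alternative chosen after seeing the data), and 0 to 7 with 1 library left out. For oxLDL + pNaKtide against control the count of 2 became 0 at a BH-adjusted p of 0.05 or with only the groups compared, 1 with genes of at least 1 count, 3 with library size only, more than 14 counts in every library or the trend and both libraries out, and 0 to 2 with 1 library left out. For IS + pNaKtide against control the count of 0 became 1 with DESeq2 or only the groups compared, 6 without both libraries, 2 with the trend out as well, and 0 to 6 with 1 library left out. The difference between oxLDL and control went from 3 to 2 with the trend out or at 0.05, 4 with DESeq2, limma or a stricter filter, or with the trend and both libraries out, 6 without both libraries and 2 to 6 with 1 left out, and that between IS and oxLDL from 5 to 3 with the trend out, with or without both libraries, and 6 with library size only.

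Nampt reversed with the trend out, to -0.18 for oxLDL against control and -0.15 for IS against control, and without both libraries as well to -0.26 in each (adjusted p = 0.00346 and 0.00647). Its difference between oxLDL and control went to 0.00 and 0.081 under the same settings. The other reversals were of values not called in the main test. In IS against oxLDL, Cfd went to as low as -0.042 and Nampt to as high as 0.03. The differences between IS and control of Adipoq, Agt and Rarres2 also changed sign, to as far as -0.004, -0.01 and 0.004 in the alternatives that keep every library or leave out both. Nampt in IS + pNaKtide against control went from 0.32 to -0.03 with the trend out, and the Cfd difference between IS and control from -0.20 to as high as 0.12. For IS + pNaKtide against IS, Cfd was 0.004 on either FPKM scale and 0.16 without both libraries, Nampt was -0.026 without both libraries, and with 1 library left out Cfd ran from -0.10 to 0.16, Nampt from -0.026 to 0.10 and Apln from -0.003 to 0.082. For pNaKtide against control, Adipoq was -0.017 with the trend and both libraries out, and Agt -0.002 without both libraries and -0.002 to 0.19 with 1 left out. The Apln difference between oxLDL and control was 0.003 with RLE scaling, 0.002 with DESeq2, 0.00 on either FPKM scale, 0.04 without both libraries and -0.035 to 0.04 with 1 left out. Apart from the trend's own construction, the cause was not tested.

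The labels do not say that libraries of the same replicate number share a culture or day, and not every pair of the same number deviated together (median r 0.0996, -0.661 to 0.79 over 75 pairs, against a median of -0.0342 over 300 pairs of different numbers), so the numbers were not taken as pairing. As a hint from the data, 13 of 30 libraries correlated best with their own number. With a replicate block the members called were 4 for oxLDL against control, 4 for IS against control, 6 for oxLDL + pNaKtide against oxLDL and 1 for IS + pNaKtide against control, and over all genes the block took IS against control from 1599 to 3423 and IS + pNaKtide against control from 72 to 1338.

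Over all genes, IS against control called 1599, and 3160 of 13500 with DESeq2, 2541 with library size only, 822 with the trend out, 0 with only the groups compared and 9140 without both libraries. With the trend out oxLDL against control went from 7259 to 3975. Scaling by library size only moved the median of all genes to 0.17 for oxLDL against control, 0.14 for IS against control and -0.30 for oxLDL + pNaKtide against oxLDL. The genes called higher and lower were then 4963 and 2276 (3637 and 3622 with TMM), 2125 and 416 (897 and 702), and 2696 and 7680 (4458 and 5264). Lep was too low for a fold change at this depth, and Rbp4, without a count, was not tested under any setting.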
